A study of Homo sapiens with 16 samples.

Results

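When MYBL1 and MYBL2 were knocked down together in HCT116, a human colorectal carcinoma line, 17 genes fell further than their responses to each knockdown alone would add up to, and 1 gene, MDM2, ended higher. The measure was the departure from additivity, computed for each gene as the log2 fold change in the double knockdown minus the sum of the log2 fold changes in the single ones, all against the same control. A departure of 0 means that the level left by both siRNAs equals the product of the levels left by each, and a negative departure means that the transcript was lower than that product. It could be computed for the 12873 genes listed in all 3 HCT116 comparisons, out of 17323 listed in at least 1 of them and 19315 listed anywhere in the series. The genes were not chosen by their departures, and every gene with the needed entries was kept. Having those entries depended on expression, so weakly expressed genes were left out. The lowest mean normalized count listed was 4.46 for siMYBL1, 28.4 for siMYBL2 and 40.4 for the double knockdown.

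The 8 HCT116 libraries fell into 4 groups of 2, collected 48 hours after transfection. One group received siCtrl, a non-targeting small interfering RNA (siRNA, a short duplex that leads to loss of the matching transcript). The others received siMYBL1, siMYBL2, or both targeting siRNAs at once (siMYBL1-siMYBL2, called the double knockdown here). All groups are the same unmodified line, the knockdowns are transient, and the sources used here do not give the total amount of siRNA in each group. The same 4 treatments in U2OS, a human osteosarcoma line, bring the series to 16 libraries. The question behind the design was whether A-MYB, the protein of MYBL1, can stand in for B-MYB, the protein of MYBL2. The data were the authors' 6 comparison tables, without values for single libraries.

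A-MYB and B-MYB are transcription factors that bind DNA through a shared MYB domain. B-MYB joins the MuvB complex, whose LIN54 subunit contacts the CHR (cell cycle genes homology region), a short promoter element, often written TTTGAA or TTCGAA, found at many genes whose expression is highest in G2 and mitosis. The same MuvB core sits in the DREAM repressor together with p130 or p107 and E2F4 in resting or p53-arrested cells, and it later joins FOXM1, another activator of mitotic genes. Promoters of this class often also carry CCAAT boxes, bound by NF-Y, while G1/S genes tend to carry E2F sites instead.

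The promoters of lower genes are shown first because a CHR is the kind of element that MuvB is known to contact. The windows run from 250 bases before to 50 bases after the annotated start, from RefSeq on GRCh38.p14, and 14 of the 17 lower genes matched an entry; AURKA, RACGAP1 and HMGB2 did not. The 4 with the most negative departure that hold a CHR word are PRR11 (chr17:59155496-59155795, plus strand), CDCA3 (chr12:6851237-6851536, minus strand), CKAP2L (chr2:112764560-112764859, minus strand) and CENPF (chr1:214602945-214603244, plus strand). Each is written 5′ to 3′ on the strand of its gene, with capitals for TTTGAA, or for TTCAAA where the word lies on the opposite strand.
PRR11: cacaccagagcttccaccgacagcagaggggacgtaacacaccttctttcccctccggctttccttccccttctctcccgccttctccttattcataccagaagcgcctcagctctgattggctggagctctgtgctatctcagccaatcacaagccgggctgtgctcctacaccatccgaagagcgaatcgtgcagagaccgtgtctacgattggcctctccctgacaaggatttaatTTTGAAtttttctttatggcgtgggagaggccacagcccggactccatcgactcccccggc
CDCA3: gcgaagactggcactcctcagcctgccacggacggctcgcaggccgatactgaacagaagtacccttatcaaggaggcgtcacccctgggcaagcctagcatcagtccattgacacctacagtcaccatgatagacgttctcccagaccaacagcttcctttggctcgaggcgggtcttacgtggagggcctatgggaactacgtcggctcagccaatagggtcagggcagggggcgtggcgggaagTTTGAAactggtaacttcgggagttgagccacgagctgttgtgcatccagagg
CKAP2L: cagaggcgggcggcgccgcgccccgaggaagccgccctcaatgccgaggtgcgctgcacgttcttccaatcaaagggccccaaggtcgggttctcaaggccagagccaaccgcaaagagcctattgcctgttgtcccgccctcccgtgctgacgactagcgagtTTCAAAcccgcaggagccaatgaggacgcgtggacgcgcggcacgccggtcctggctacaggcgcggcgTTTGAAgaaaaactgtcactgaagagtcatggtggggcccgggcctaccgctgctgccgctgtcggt
CENPF: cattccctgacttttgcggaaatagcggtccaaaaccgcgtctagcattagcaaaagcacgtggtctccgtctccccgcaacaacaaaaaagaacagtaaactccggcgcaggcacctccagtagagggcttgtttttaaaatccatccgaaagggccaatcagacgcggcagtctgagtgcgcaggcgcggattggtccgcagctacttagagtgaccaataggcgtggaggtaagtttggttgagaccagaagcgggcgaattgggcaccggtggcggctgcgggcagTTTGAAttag
In PRR11 the word begins 11 bases before the start, in CDCA3 it begins 3 bases before it and spans it, and in CENPF it begins 40 bases after it. CKAP2L holds it 17 bases before the start and again, on the opposite strand, 86 bases before it. The PRR11 window also holds CCAAT on the gene strand 1 time and reversed as ATTGG 2 times.

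The same words were counted on both strands in every promoter window of this length. TTTGAA was present in 11 of the 14 windows of lower genes (78.6%) and in 902 of the 9919 windows of tested genes (9.09%). TTCGAA, the other CHR word, was in 0 of the 14 and in 1.68% of all tested. CCAAT was in 13 of the 14 (92.9%) and in 36.9% of all tested. The MYB-type word TAACGG was in 0 of the 14 and in 4.06% of all tested, and the E2F words TTTGGCGC or TTTCGCGC were in 0 of the 14 and in 2.13%. CCAAT was also in 58.9% of windows of late cell cycle genes that were not called and in 62% of G1/S windows. The lower windows thus held TTTGAA and CCAAT in a larger share than tested windows at large. The MYB and E2F spellings searched were rare in tested windows too, so their absence from 14 windows says little. GAS2L3, KIF20A and PTTG1 were the matched lower genes without TTTGAA. Late cell cycle genes that were not called held TTTGAA too: 49 of 90 of their windows (54.4%), against 2 of 50 G1/S windows and 1 of 26 windows of p53 targets. These are matches of letters in a fixed window, with no test, and they are not evidence of binding.

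The knocked-down transcripts did not themselves depart from the sum beyond their error. In the authors' deposited table, MYBL1 stood at a log2 fold change of -1.67 (SE 0.32) after siMYBL1, -0.40 (SE 0.27) after siMYBL2 and -1.85 (SE 0.37) after both. That is 31.5%, 75.6% and 27.8% of siCtrl. MYBL2 stood at 97.6%, 9.05% and 9.92% of siCtrl in the same order, so the double knockdown left about as little of each target as its own siRNA did alone. The departure was 0.23 (SE 0.56) for MYBL1 and 0.17 (SE 0.29) for MYBL2, neither past the threshold. MYB, the third member of the family, had a departure of -0.69 (SE 0.54), not past the threshold, at a low level, with a base mean (mean normalized count over the libraries compared) of 166.2 in the double-knockdown table.

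Called genes are those with an adjusted p under 0.05, from a normal test of the departure over the root of the summed squared standard errors, adjusted by Benjamini-Hochberg over all 12873 genes. By that rule 0.132% of genes were lower and 0.00777% higher. Among the 17 lower genes, transcripts remained at 71.2% to 101.6% of siCtrl after siMYBL1 (median 85.9%) and at 53.8% to 96.5% after siMYBL2 (median 70.1%). Both siRNAs together left 15.3% to 38.0% (median 21.5%), where the product of the single levels was 44.7% to 85.9% (median 59.3%). The double knockdown thus reached 28.1% to 45.9% of the product. All 17 are protein coding, lie on 11 chromosomes, and 15 of them belong to lists of late cell cycle genes; in bulk RNA, fewer cells in G2 and mitosis and less RNA per such cell cannot be told apart.

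**Figure D1:**
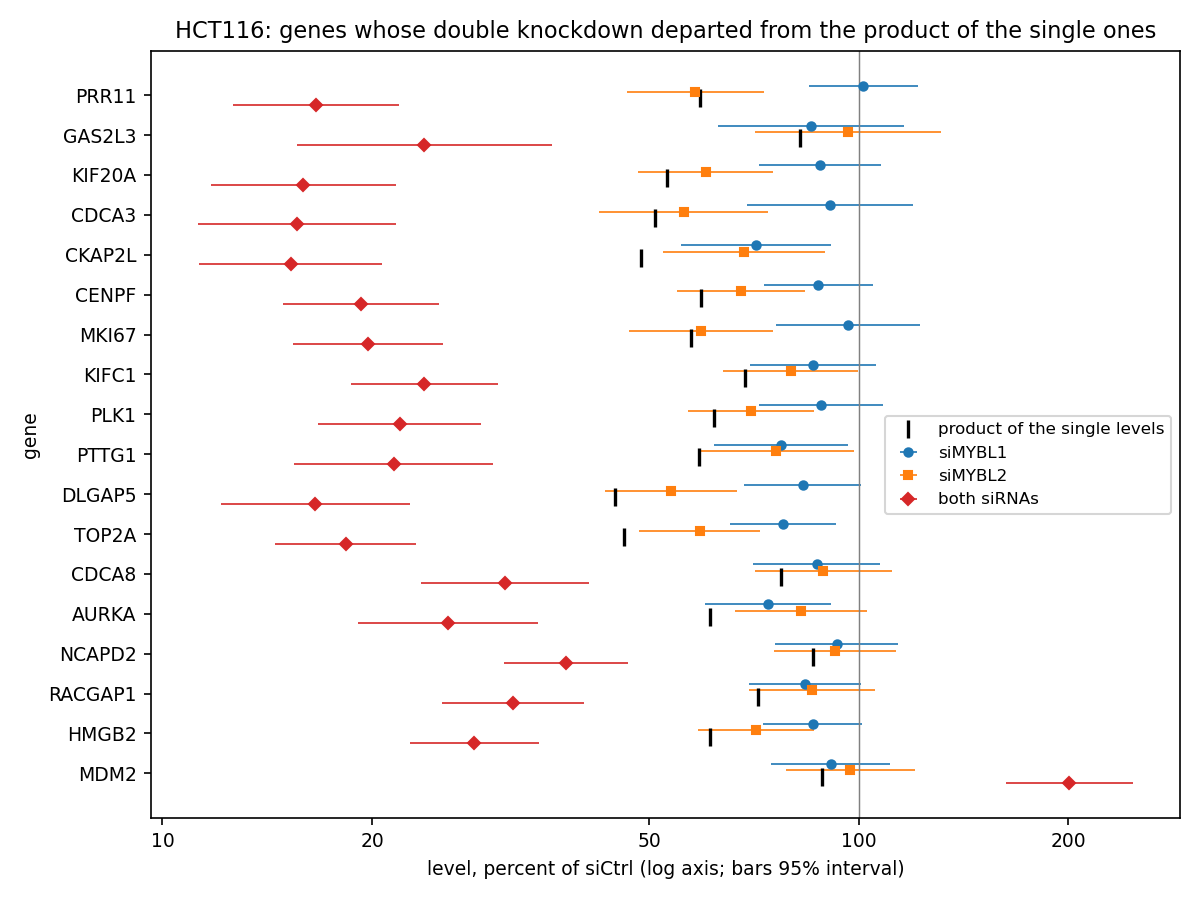
Transcript level of each called HCT116 gene as a percent of siCtrl on a log axis, after siMYBL1 (blue circles), siMYBL2 (orange squares) and both siRNAs (red diamonds), with 95% intervals from the deposited standard errors. The black tick is the product of the single levels; the red points of the 17 lower genes lie left of it, at 15.3% to 38.0% of siCtrl, and that of MDM2 lies right of it, at 200.6%.

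Among 24 mitotic kinases, cyclins and their partners, 2 were called. PLK1, the polo-like kinase that drives entry into mitosis and spindle assembly, was at 88.3% of siCtrl after siMYBL1, 70.1% after siMYBL2 and 21.9% after both. Neither single change passed in the authors' deposited table (the adjusted p was 0.0607 after siMYBL2), while the double did at a log2 fold change of -2.19 (SE 0.20). Its departure was -1.50 (SE 0.29, adjusted p = 0.000754). AURKA, the kinase of centrosomes and spindle poles, went from 74.1% and 82.6% to 25.7%, a departure of -1.25 (SE 0.31, adjusted p = 0.0426), and it lost its call once departures were centred on the median gene (adjusted p = 0.0577). Every one of the 24 genes had a departure below 0, with a median of -0.73.

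CDK1, the kinase that drives mitosis, and its partner CCNB1 were not called. CDK1 was at 79.3%, 64.3% and 36.5% of siCtrl, beside a product of 51.0%, and its departure of -0.48 (SE 0.29) did not pass. CCNB1 was at 79.9%, 61.2% and 30.3%, with a departure of -0.69 whose error was wide (SE 0.50), because the authors' deposited table gives a standard error of 0.46 to its double-knockdown fold change. TPX2, the activator of AURKA on the spindle, stood just outside the threshold at -1.02 (SE 0.27, adjusted p = 0.0821).

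Among 29 kinetochore, centromere and checkpoint genes, CENPF and CDCA8 were called. CENPF, a large protein of the outer kinetochore, kept 87.5% of its siCtrl level after siMYBL1 and 67.8% after siMYBL2, but 19.3% after both, a departure of -1.62 (SE 0.28, adjusted p = 3.84e-05). CDCA8 (borealin, of the chromosomal passenger complex that corrects spindle attachments) was at 87.0% and 89.0% after the single knockdowns. Neither change had an adjusted p under 0.05 in the authors' deposited table. After both siRNAs CDCA8 was at 31.1%, a departure of -1.32 (SE 0.31). BIRC5 (survivin), a partner of CDCA8 in that complex, had a similar size at -1.19 (SE 0.31) and just missed the threshold (adjusted p = 0.0682). The list was not uniform: BUB3, a checkpoint protein, had a departure of -0.18 (SE 0.25), and the list's median was -0.55 with 27 of 29 below 0.

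Spindle, kinesin and cytokinesis genes gave 5 calls among 34. KIF20A, a kinesin of the central spindle needed for cytokinesis, had the largest departure of the list at -1.73 (SE 0.32, adjusted p = 0.000165), with 15.9% of its siCtrl level left by the double knockdown. CKAP2L, a spindle protein, was at 71.2% and 68.4% after the single knockdowns and at 15.3% after both, the lowest level of any called gene. KIFC1, a minus-end kinesin that focuses spindle poles, had a departure of -1.53 (SE 0.29), with 85.9%, 79.8% and 23.8% of siCtrl remaining. DLGAP5 (HURP), which stabilises kinetochore microtubules, had the strongest response to siMYBL2 of the lower genes, at 53.8% of siCtrl, and still fell to 16.6% in the double, a departure of -1.43 (SE 0.32). RACGAP1, of the centralspindlin complex, had a departure of -1.17 (SE 0.27); it is named here because 5 genes of the list were called, after its value was seen. ANLN and PRC1, both of the cytokinetic apparatus, had departures of -0.99 (SE 0.26, adjusted p = 0.0883) and -0.86 (SE 0.29, adjusted p = 0.812). All 34 departures of the list were below 0, and 28 had an unadjusted p under 0.05, a level that 0.792% of all genes reached on the lower side and 0.334% on the higher.

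Chromosome structure and cohesion genes also gave 5 calls, among 15 tested. MKI67 (Ki-67, which coats mitotic chromosomes and marks cycling cells) was at 96.5% of siCtrl after siMYBL1, 59.4% after siMYBL2 and 19.7% after both, a departure of -1.54 (SE 0.31, adjusted p = 0.00106). PTTG1 (securin, which holds back the separation of sister chromatids) was at 77.3% and 76.2% after the single knockdowns, 21.5% after both, and had a departure of -1.45 (SE 0.35). TOP2A, the topoisomerase that untangles sister chromatids, had a departure of -1.33 (SE 0.26). NCAPD2, a condensin subunit, was at 93.0% and 92.4% after the single knockdowns and had the highest double-knockdown level of the lower genes, at 38.0%. The chromatin protein HMGB2 closed the set with a departure of -1.12 (SE 0.24). SMC4, another condensin subunit, was not called at -0.60 (SE 0.25).

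LMNB1 (lamin B1, of the nuclear lamina) is a member of the same list whose main single response was to siMYBL1. In the authors' deposited table its log2 fold change was -1.27 (SE 0.15) after siMYBL1, -0.08 (SE 0.14) after siMYBL2 and -1.92 (SE 0.19) after both. Its departure was -0.57 (SE 0.29) and did not pass, with the double at 67.4% of the product (95% interval 45.7% to 99.3%).

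CDCA3, an adaptor for protein degradation that helps cells enter mitosis, was the 1 call among 17 genes of the anaphase-promoting complex and its partners. It was at 90.8%, 56.0% and 15.6% of siCtrl, a departure of -1.71 (SE 0.38, adjusted p = 0.00615). Transcripts of other partners were not called: CDC20, the activator of the complex in mitosis, stood at -0.97 (SE 0.30, adjusted p = 0.456), and UBE2S, one of its ubiquitin-conjugating enzymes, at -0.81 (SE 0.45). UBE2C, the other such enzyme, was the nearest gene outside the threshold (-1.24, SE 0.31, adjusted p = 0.0535; chosen after its value was seen). The list's median was -0.19, with 11 of 17 below 0, and it holds the core subunits as well as partners.

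PRR11 and GAS2L3 were called lower and stand in none of the gene lists. PRR11, a proline-rich protein whose gene has been studied for its cell cycle expression, was called with the smallest adjusted p. It was at 101.6% of siCtrl after siMYBL1, 58.3% after siMYBL2 and 16.6% after both, so its level after siMYBL1 alone was within 1 SE of siCtrl. Its departure was the largest in size of the lower genes, at -1.83 (SE 0.29, adjusted p = 5.24e-06). GAS2L3, which links actin and microtubules in dividing cells, was at 85.4% and 96.5% after the single knockdowns and at 23.8% after both. Its departure of -1.79 (SE 0.45) rested on the lowest base mean of the 17, 299.5, and its call was lost with centring (adjusted p = 0.0543).

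The 5 late cell cycle lists together held 119 tested genes, of which 15 were called lower and none higher. A departure below 0 was found in 111 of them, against 6902 of all 12873 genes, and the median was -0.73 against -0.02. In the same lists the median log2 fold change was -0.17 after siMYBL1, -0.41 after siMYBL2 and -1.46 after both. An unadjusted p under 0.05 was reached by 65 of the 119, all on the lower side. The 104 members that were not called included 96 below 0.

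**Figure D2:**
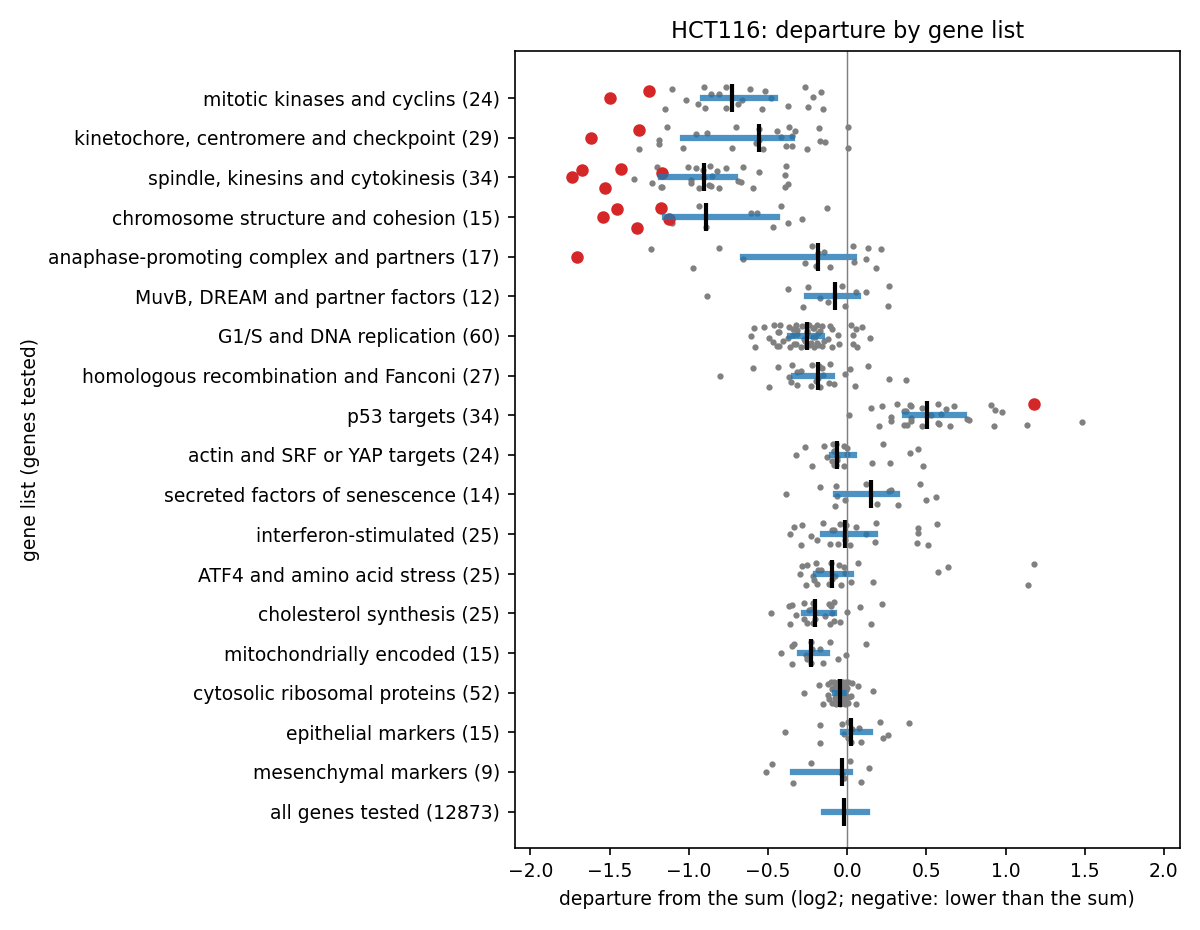
Departure from the sum in HCT116 (log2, horizontal) for the tested members of each gene list, whose size stands in parentheses; points are genes, red where called, black ticks are medians and blue bars span the middle 50% of genes. The late cell cycle lists at the top lie left of 0, with medians from -0.91 to -0.19, the p53 targets lie right of it with a median of 0.50, and the median of all genes is -0.02.

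MuvB, DREAM and partner genes had a median near 0. None of these 12 genes was called, 1 had an unadjusted p under 0.05, and their median departure was -0.08. Over all tested genes 0.132% were called lower and 0.00777% higher, so a list this short would mostly hold no call. FOXM1 was the member farthest from 0, at 107.2% of siCtrl after siMYBL1, 88.1% after siMYBL2 and 51.1% after both, a departure of -0.89 (SE 0.29, adjusted p = 0.724). RBBP4, a histone-binding subunit of MuvB, had a departure of -0.01 (SE 0.26), and TFDP1, the dimer partner of E2F4, -0.38 (SE 0.26). LIN9, LIN37, LIN52 and LIN54, the MuvB core subunits named for this purpose after their values were seen, lay between -0.28 and 0.27, with errors of 0.37 to 0.56 at base means of 146.6 to 427.0.

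p53 targets stood on the other side of 0. MDM2, the ubiquitin ligase that p53 induces and that degrades p53, was the 1 gene called higher. It was at 91.1% of siCtrl after siMYBL1, 97.3% after siMYBL2 and 200.6% after both. Its departure was 1.18 (SE 0.26, adjusted p = 0.00809), which is 226.3% of the product (95% interval 158.0% to 323.9%). The call was lost with Benjamini-Yekutieli (adjusted p = 0.0812) and Bonferroni adjustment (adjusted p = 0.105). Of 36 listed p53 targets 34 could be tested, all 34 had a departure above 0, the median was 0.50, and 7 had an unadjusted p under 0.05 on the higher side. Over all 12873 tested genes 5971 were above 0, and 0.334% reached that p on the higher side. In the authors' deposited table, CDKN1A (p21, an inhibitor of cyclin-dependent kinases) had log2 fold changes of 0.22, 0.57 and 1.70, and its departure was 0.91 (SE 0.26, adjusted p = 0.248). BTG2, an antiproliferative p53 target, reached 386.5% of siCtrl in the double, but stood at 131.7% and 187.1% after the single knockdowns, and its departure of 0.65 (SE 0.37) did not pass. GDF15, a secreted factor, had a departure of 0.67 (SE 0.29).

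**Figure D3:**
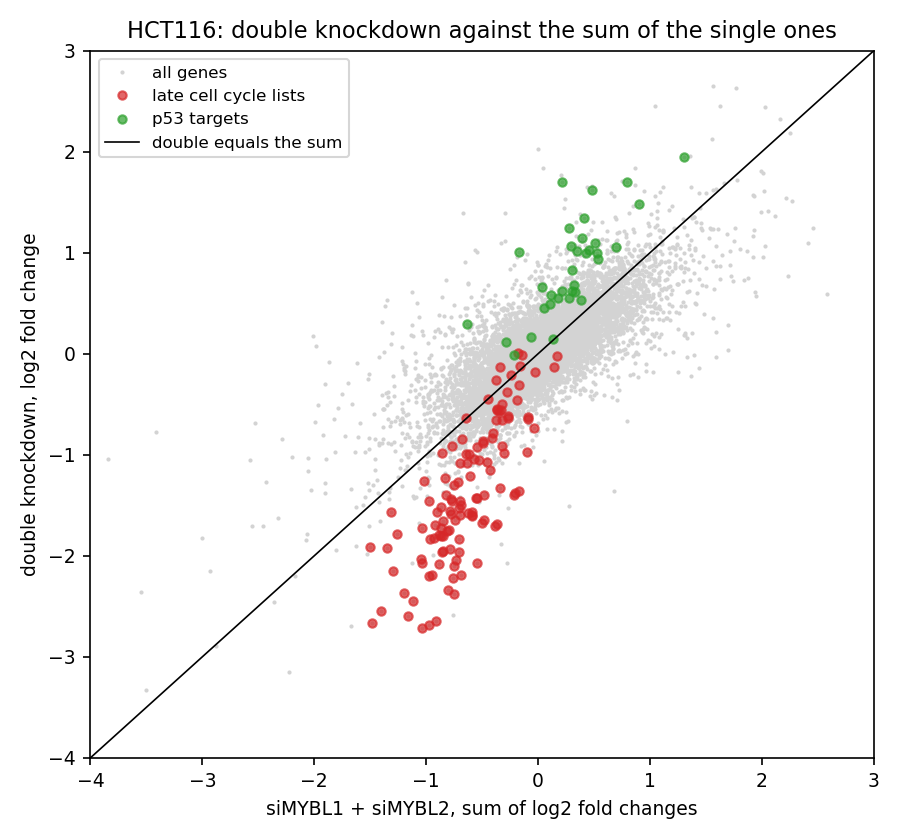
Log2 fold change in the HCT116 double knockdown (vertical) against the sum of the log2 fold changes after siMYBL1 and siMYBL2 (horizontal), 1 point a gene, with the line on which the double equals the sum. Late cell cycle genes (red) lie mostly below the line, 111 of 119, and all 34 p53 targets (green) lie above it.

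G1/S and replication genes had smaller departures in the median. None of 60 was called, 2 had an unadjusted p under 0.05, and the median was -0.25 with 53 of 60 below 0, against 6902 of all 12873 genes. Over all tested genes 0.132% were called lower and 0.00777% higher, so most lists of this size would hold no call. MCM7 and MCM4, subunits of the replicative helicase, had departures of -0.10 (SE 0.25) and -0.26 (SE 0.25). Of 27 homologous recombination and Fanconi genes none was called, 1 had an unadjusted p under 0.05 and the median was -0.18, with FANCI at -0.22 (SE 0.29) and FANCA at -0.18 (SE 0.28).

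Other groups gave no call, but over all tested genes only 0.132% were called lower and 0.00777% higher. At that rate most lists of these sizes would hold no call. No member was called among 24 actin and SRF or YAP targets (median -0.07), 14 secreted factors of senescence (0.15), 25 interferon-stimulated genes (-0.02), 25 ATF4 targets (-0.09), 25 cholesterol synthesis genes (-0.20), 15 mitochondrially encoded genes (-0.23) or 52 ribosomal protein genes (-0.04), and 1 of the ATF4 targets alone reached an unadjusted p under 0.05. Departures were below 0 in 14 of 15 mitochondrially encoded, 22 of 25 cholesterol synthesis and 44 of 52 ribosomal protein genes, and the medians of the first 2 of these lists were about the size of the G1/S one. Over all genes 6902 of 12873 were below 0 with a median of -0.02, so the ribosomal median was close to that of all genes. For the mitochondrially encoded genes each knockdown alone had a median above 0, 0.25 and 0.37 on the log2 scale, and the double had 0.40. The label of an epithelial line was borne out in part by its markers. Of 20 epithelial markers 15 were listed in all 3 tables, EPCAM, CDH1 and the keratins KRT8 and KRT19 among them, while the intestinal markers CDX1, VIL1, LGALS4, TSPAN8 and CEACAM5 were not. Of 22 mesenchymal markers 9 were listed in all 3 tables, and VIM and CDH2 were not. The collagen VI genes COL6A1 and COL6A2 of that list had base means of 2212 and 1954 in the double-knockdown table, above the 1869 of CDH1. PTPRC, CD3E and CD14 of blood cells were listed in no table and HBA1 of red blood cells in the siMYBL1 table only. Departures ran from -0.39 to 0.39 in the epithelial list and from -0.51 to 0.14 in the mesenchymal list, and none was called or reached an unadjusted p under 0.05.

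The calls depend on the scale on which effects are added. On a linear scale, additivity means that the losses in percent of siCtrl add, and the departure is the double-knockdown level minus the level so predicted, in points of siCtrl. All 17 lower genes were below 0 on that scale too, from -58.1 to -18.6 points (median -36.0), and 15 had an unadjusted p under 0.05. These genes were picked by their log2 departure from the same fold changes, so neither count is separate support. Unadjusted, 0.404% of genes were lower and 0.326% higher, and 29 of the 52 lower ones were late cell cycle genes. After Benjamini-Hochberg adjustment 0% of genes passed; the smallest adjusted p was 0.165, of MDM2. PRR11 had a linear departure of -43.2 points (SE 11.8) and NCAPD2 one of -47.4 points (SE 14.1), so the sign was kept and the call was not. The median was -18.7 points in the late cell cycle lists, 51.0 in the p53 targets and -1.06 over all genes.

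The siCtrl libraries enter each of the 3 comparisons, and their own deviation does not cancel in the departure but remains once. The error of the log2 departure counts the control variance in every table and is therefore too large. Counted once, it is 0.817 of its size in the median gene. Divided by its error, the departure had a robust standard deviation over genes of 0.531, and of 0.650 with the control counted once. Errors that matched the spread would give about 1, so both were wider than the spread. A gene without a call is therefore not shown to be additive. With the control counted once, 0.272% of genes were lower and 0.0311% higher, that is 35 and 4. Among them were all 18 genes called before, and 32 of the 35 lower ones were late cell cycle genes. CDKN1A then passed (adjusted p = 0.010). On the linear scale the error of all 17 lower genes was instead larger with the control counted once, for PRR11 13.5 points in place of 11.8, and 13 of them, not 15, kept an unadjusted p under 0.05. By that error 0.0466% of genes were higher and 0% lower. The higher ones were MDM2, CDKN1A, TP53I3, FAS and FDXR, which are p53 targets, and 1 gene with no symbol on chromosome 14; all but MDM2 and CDKN1A are named after their values were seen. A deviation of the control pair that many genes of a list share would move all of their departures by the same amount; without values per library its part was not tested.

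Expression level set what could be called. A gene needed a departure about 4.01 times its error. The median error fell from 0.85 in genes with a base mean under 100 to 0.24 in those of 3000 or more, so that the departure needed fell from 3.42 to 0.98. The 17 lower genes had base means of 299.5 to 7911, and none of the 1739 genes under 100 was called. The smallest departure called was -1.12, so departures well under 1 on the log2 scale were not detectable with these errors. The errors were wider than the spread of the departures, as given above, so this limit belongs to the errors used.

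**Figure D4:**
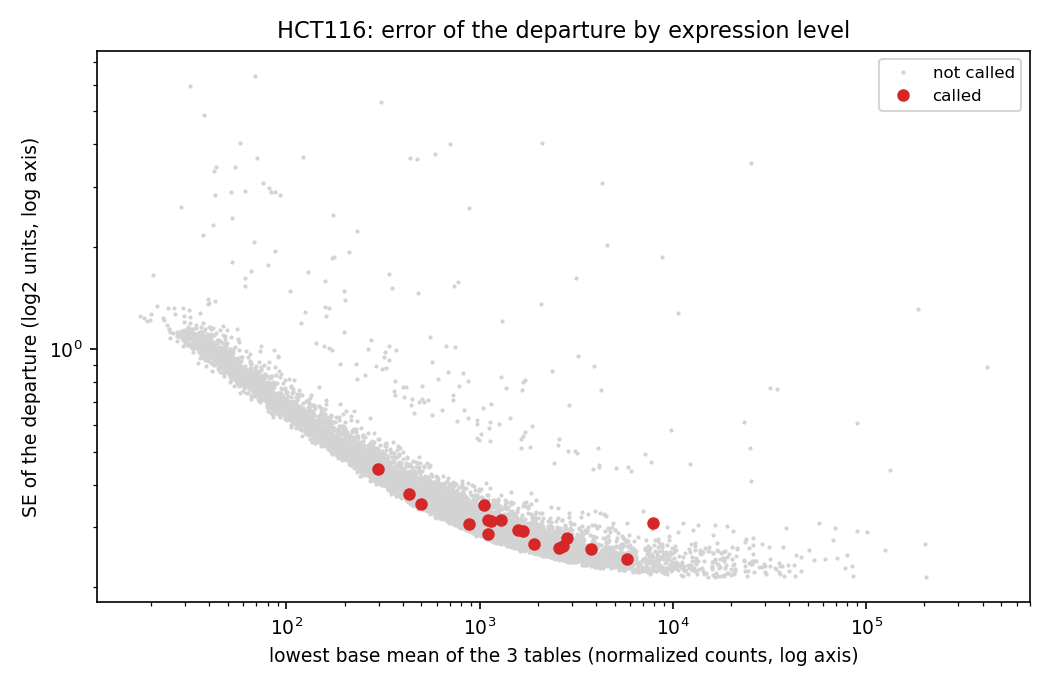
Standard error of the HCT116 departure (log2 units, log axis) against the lowest base mean of the 3 tables (normalized counts, log axis), 1 point a gene, called genes in red. The error falls with expression, from a median of 0.85 under a base mean of 100 to 0.24 at 3000 or more, and the called genes lie between 299.5 and 7911.

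The same measure in U2OS rests on other libraries and controls. The log2 fold change of MYBL1 in U2OS was -0.98 after siMYBL1 and -1.20 after both, against -1.67 and -1.85 in HCT116. That of MYBL2 was -4.47 after siMYBL2 and -4.53 after both, against -3.47 and -3.33 in HCT116. Whether the depth of knockdown bore on the departures was not tested. In U2OS, 31 of 14701 genes were lower (0.211%) and 0% higher by the same rule, and 26 of the 31 were late cell cycle genes. The genes lower in both lines were 12, which is 70.6% of the 17 in HCT116 and 38.7% of the 31 in U2OS. All 17 lower genes of HCT116 had a departure below 0 in U2OS, from -2.62 to -0.73 (median -1.55). Of all genes tested in U2OS 51.0% were below 0, and of the 119 late cell cycle genes 90 were. PLK1 had -1.50 (SE 0.29) in HCT116 and -2.62 (SE 0.33) in U2OS, and KIF20A -1.73 and -2.25. GAS2L3, MKI67, KIFC1, NCAPD2 and HMGB2 were called in HCT116 and not in U2OS, where MKI67 had -0.84 (SE 0.36) and NCAPD2 -1.05 (SE 0.30). CCNB1, not called in HCT116, passed in U2OS at -1.42 (SE 0.27).

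No gene passed a test of the difference between the lines: 0% of the 12069 genes in all 6 tables passed after adjustment. Unadjusted, 0.249% had a lower departure in HCT116 and 0.257% a higher one. The test combines the errors of both lines, and those of HCT116 were wider than the spread of its departures. The absence of calls therefore does not show that the lines are alike. Across the 119 late cell cycle genes the departures of the lines had a Pearson r of 0.815, and across 10265 genes whose base mean reached 100 an r of 0.163, given as descriptions over genes that share libraries within a line. Medians of several lists lay apart between the lines. Among late cell cycle lists, the kinetochore list had a median of -0.55 in HCT116 and -0.12 in U2OS, and the chromosome structure list -0.89 and -0.38. Over all 119 late genes 111 were below 0 in HCT116 and 90 in U2OS. G1/S and replication genes had a median of -0.25 in HCT116 and 0.39 in U2OS, and 11 of 60 had an unadjusted p under 0.05 for a lower departure in HCT116. p53 targets had medians of 0.50 and 0.01 over the 32 genes listed in both, with 2 of them past an unadjusted p of 0.05. The fold changes behind these departures also differed. The 33 p53 targets tested in U2OS had median log2 fold changes of 0.49 after siMYBL1, 0.27 after siMYBL2 and 0.71 after both. The 34 tested in HCT116 had 0.01, 0.24 and 0.88. For the 60 G1/S genes these medians were -0.37, -0.17 and -0.16 in U2OS and -0.06, -0.20 and -0.52 in HCT116. MDM2 had a departure of 1.18 in HCT116 and -0.20 (SE 0.39) in U2OS (unadjusted p of the difference 0.00358), and DTL, a G1/S gene of the ubiquitin ligase that degrades CDT1 and p21, had -0.37 (SE 0.33) and 1.14 (SE 0.36), an unadjusted p of 0.00188, chosen after its value was seen.

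**Figure D5:**
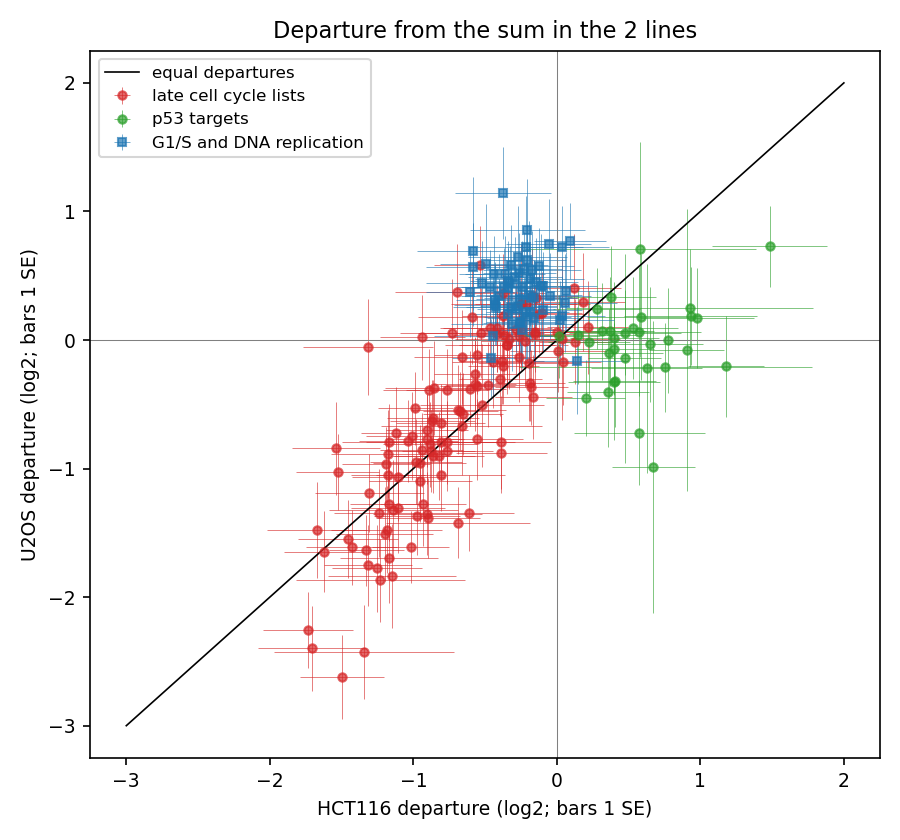
Departure from the sum in U2OS (vertical) against HCT116 (horizontal), both log2 with bars of 1 standard error, 1 point a gene, with the line of equal departures. Late cell cycle genes (red) run along the line into the lower left, G1/S genes (blue) lie mostly above 0 in U2OS and below 0 in HCT116, with medians of 0.39 and -0.25, and p53 targets (green) lie above 0 in HCT116 and around 0 in U2OS.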

How the data were processed

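Only the authors' 6 comparison tables were used. Trimming with cutadapt 4.4, Salmon 1.10.1 quantification, DESeq2 1.40 and the build hg38 are named in the submitters' processing notes; the sources used here give neither settings nor annotation. Per the file headers, each deposited table gives a base mean (a signal, the mean normalized count of the libraries compared), a log2 fold change with its standard error, a Wald score, and a p-value with its adjusted value; the last 2 and the scores were used only as printed. The HCT116 tables were joined by gene identifier. The departure, its error, a normal 2-sided p and Benjamini-Hochberg adjustment were computed with Python 3.11.15, numpy 2.4.6, pandas 2.3.3 and scipy 1.17.1. The calculation was tested on simulated data in which neither single knockdown had an effect, so genes with single responses were not covered. Levels in percent of siCtrl are 2 to the power of the deposited fold change. The tables hold no values per library, so read depth per library is unknown and p-values rest on 2 libraries a group, which the series calls biological replicates.

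The members and gene lists were chosen with earlier results of these data known, so no list is independent evidence of its direction. Named were MYB, MYBL1 and MYBL2, the 12 largest called departures each way where every base mean reached 100, up to 4 called and the 2 most expressed uncalled members of each list, and a set of cell cycle genes; others are marked as chosen after their values were seen. Alternatives were counting the control variance once, centring, a base mean of at least 100, Benjamini-Yekutieli and Bonferroni adjustment, the linear scale, and setting missing single fold changes to 0; the linear scale with the control counted once was added after seeing the data.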

Additional observations from a re-analysis of the deposited data

How the results depend on the processing

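The count of lower genes in HCT116 was 17, and that of higher genes 1. With the control variance counted once, by equal variances or by a delta method, 35 were lower and 4 higher under both. Benjamini-Yekutieli adjustment gave 8 lower and 0 higher, and Bonferroni 9 and 0, so MDM2 lost its call under both. Under Bonferroni AURKA, CDCA3, CDCA8, DLGAP5, GAS2L3, NCAPD2, PTTG1 and RACGAP1 lost their calls as lower genes too. On the linear scale 0 were lower and 0 higher; with the control counted once as well (added after seeing the data), 0 and 6. In U2OS, 31 were lower and 0 higher. With the control counted once, 48 were lower by equal variances and 46 by the delta method, and 1 was higher by equal variances and 1 by the delta method. The difference between the lines gave 0 calls under each setting run. Centring on the median changed the sign of RBBP4 to 0.010, ATF4 to 0.0048 and KRT8 to 0.0041, all uncalled. None of the 18 list medians moved by more than the median error of its genes. This says little, because a change of error or adjustment leaves every departure as it is. Centring shifts all departures by the same amount, and the linear scale was left out of this comparison. Leaving out each library in turn could not be run, because the tables hold no values per library. No paired analysis was possible because the tables hold fold changes of whole groups, with no values for single replicates.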
